A study of Mus musculus with 10 samples.

Results

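NF-kB is a family of dimeric transcription factors, and the genes described here are its 5 subunits (Nfkb1, Nfkb2, Rel, Rela and Relb) and 5 genes whose products bind or restrain it (Nfkbia, Nfkbib, Nfkbie, Nfkbiz and Tnfaip3). They were found by gene symbol among the 52550 genes of the deposited count table, and all 10 of the 10 genes had at least 10 counts in total over 10 RNA sequencing libraries. The libraries come from C57BL/6 mouse hematopoietic stem and progenitor cells (HSPCs) that were enriched from bone marrow, transformed by a retrovirus carrying the MLL-AF9 fusion oncogene, transduced with a tetR-KRAB repressor, and grown with the cytokines SCF, GM-CSF, IL-6 and IL-3. In MLL-AF9-i139 cells doxycycline (DOX) induces miR-139, and each of 3 clones was sequenced once untreated and once with DOX at 5 µg/mL, for 48 h in clones 1 and 2 and for 72 h in clone 3. For the untreated libraries of these 3 clones no culture time is labelled. In MLL-AF9-ieGFP cells DOX induces eGFP, and 1 clone was sequenced, untreated and treated, after 48 h and again after 72 h. The study asked which genes change when miR-139 is induced. The 4 MLL-AF9-ieGFP libraries are different times of 1 clone, so they hold no spread between MLL-AF9-ieGFP clones. P-values for MLL-AF9-ieGFP and for its difference from MLL-AF9-i139 come from 1 fit of all 10 libraries. Their spread is thus estimated from the MLL-AF9-i139 clones as well. In MLL-AF9-i139 clone 3 the clone and the longer DOX time cannot be told apart.

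In resting cells NF-kB dimers are held in the cytoplasm by IkB proteins. Receptors for TNF, IL-1 and microbial products activate the IkB kinases, which mark IkB for destruction and free the dimers to enter the nucleus. The dimers then switch on survival and inflammatory genes and also their own brakes: Nfkbia, which encodes the main IkB, and Tnfaip3, which encodes the ubiquitin-editing enzyme A20, are classic feedback targets. In myeloid progenitors and in leukemia the pathway is known for its part in cell survival and in monocyte and macrophage function.

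Total counts ranged from 35133308 to 47089725 per library, and no pair of libraries of a group agreed within sampling noise, with chi-square per degree of freedom from 13.5 to 112, so each was counted as 1 sample. The Mir139 hairpin had 0 counts in each of the 10 libraries, so these libraries do not check its induction. Of 10 markers of the transformed myeloid progenitors, 9 had at least 10 counts, among them Kit with 131.5 to 171.5 CPM, while Itgam, the CD11b gene, had 6 counts over all libraries. Over the 10 libraries, 4 B cell markers summed to 0.724 to 1.62 CPM (mostly Cd79a, with Ms4a1 at 0), 4 erythroid markers to 1.34 to 2.43 CPM (mostly Klf1, with Hbb-bs at 0), 3 megakaryocyte markers to 1.33 to 2.97 CPM and 4 macrophage markers to 1.67 to 14.4 CPM, led by Adgre1 (up to 9.19 CPM) and Csf1r (up to 5.14 CPM), with C1qa at 0. Values are given as CPM, counts scaled to a common library total, after TMM normalization. In such bulk samples fewer cells that express a gene and less RNA per cell cannot be told apart.

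Both mature products of Mir139 are shown first, since the construct of MLL-AF9-i139 is built to express them with DOX. They are the RefSeq sequences (GRCm38.p6, plus strand of chromosome 7, 101475382 to 101475403 for miR-139-5p and 101475418 to 101475439 for miR-139-3p), with the seed, bases 2 to 8, in capitals.
miR-139-5p: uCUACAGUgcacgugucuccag
miR-139-3p: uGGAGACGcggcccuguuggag
The longest annotated 3′ UTR of each gene was searched for 3 kinds of site of either miRNA: the 7 bases that pair with the whole seed, the 7 bases made of the pairing partners of seed bases 2 to 7 followed by an A, and the 8 bases that meet both rules. A miR-139-5p site stood in 3 of the 10 genes, Rela, Rel and Tnfaip3, and a miR-139-3p site in Rel alone, against 21.7% and 15.9% of the 13987 tested genes with an annotated 3′ UTR. These shares are not matched for length. The 3′ UTRs searched had 714 bases in Rela, 5418 in Rel and 1821 in Tnfaip3, beside a median of 1091. The sites are shown with their 7 or 8 bases in capitals, as 30 bases of the transcript (GRCm38), since seed pairing is how a miRNA recognises a transcript.
Rela, chr19:5648006-5648035, plus strand, miR-139-5p, whole seed and A: tagcagggcaaACTGTAGAgtcaggagggc
Rel, chr11:23738045-23738074, minus strand, miR-139-5p, bases 2 to 7 and A: tgttttcatgtCTGTAGAaaggccgaaacc
Tnfaip3, chr10:19001574-19001603, minus strand, miR-139-5p, bases 2 to 7 and A: tatggataagcCTGTAGAatcggctgcttc
Rel, chr11:23741289-23741318, minus strand, miR-139-3p, whole seed: ccgaagcccacCGTCTCCtttgaacttttg
No such site was found in the 3′ UTRs of the other 7 genes, which were between 336 bases (Relb) and 1355 bases (Nfkbiz) long. A site is a description of these letters and says nothing of binding.

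The κB motif was searched in the 250 bases before each RefSeq start on both strands, as the 10 bases GGG, a purine, any base, A or T, 2 pyrimidines and CC, or the reverse complement of this. Promoter sequences were given for 7 of the 10 genes (all but Nfkb1, Relb and Nfkbiz). A match stood before at least 1 start of 5 of the 7, namely Nfkb2, Rel, Nfkbia, Nfkbie and Tnfaip3, against 4.46% of 27025 genes, and no match stood before the starts of Rela and Nfkbib. The windows of Nfkbia, Rel and Nfkbie are printed because they lie outside annotated exons and their genes stand on both sides of the circuit; the motif is in capitals (RefSeq, GRCm38.p6, written 5′ to 3′ along the gene).
Nfkbia, chr12:55492648-55492897, minus strand: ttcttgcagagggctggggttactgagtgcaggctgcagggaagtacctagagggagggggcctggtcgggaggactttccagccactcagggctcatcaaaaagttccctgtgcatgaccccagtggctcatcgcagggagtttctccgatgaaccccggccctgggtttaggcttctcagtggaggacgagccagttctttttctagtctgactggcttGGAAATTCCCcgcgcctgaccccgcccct
Rel, chr11:23770971-23771219, minus strand: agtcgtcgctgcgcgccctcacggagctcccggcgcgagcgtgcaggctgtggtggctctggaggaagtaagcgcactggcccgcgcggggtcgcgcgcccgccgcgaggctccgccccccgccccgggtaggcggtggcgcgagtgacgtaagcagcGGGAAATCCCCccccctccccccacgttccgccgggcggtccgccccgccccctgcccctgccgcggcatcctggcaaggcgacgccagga
Nfkbie, chr17:45555450-45555699, plus strand: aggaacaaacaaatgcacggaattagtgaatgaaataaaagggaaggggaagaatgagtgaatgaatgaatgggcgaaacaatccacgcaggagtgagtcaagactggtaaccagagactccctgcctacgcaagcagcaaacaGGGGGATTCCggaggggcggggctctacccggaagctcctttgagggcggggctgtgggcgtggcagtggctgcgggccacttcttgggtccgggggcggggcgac
In Rel a pair of matches overlap and are capitalised as 1 stretch. In Tnfaip3 the matches GGGACACCCC and GGAAATCCCC began 125 and 12 bases before the start. Before the 3 starts of Nfkb2 there were 5 matches, GGGAATTCCC, GGAATTCCCC, GGGGCTTTCC, GGAATGTCCC and GGGACTTTCC, the first pair of which overlap. As with the seed sites, these are matches of letters and not measured binding.

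Before any treatment the 10 genes spanned a wide range of levels. Per kilobase of exon, the untreated MLL-AF9-i139 clones held most transcript of Rela (17.2 ± 1.70 CPM per kb, SD, n = 3), the activating subunit of the classic dimer. Nfkbia followed with 15.5 ± 0.430 CPM per kb, then Nfkb1, whose product is cut to the partner subunit without an activation domain, with 11.3 ± 0.639, and Nfkbib, which encodes another IkB, with 9.23 ± 0.754. Rela and Nfkbia made up 26.0% and 23.5% of the summed level of the 10 genes. Rel (5.26 ± 0.458 CPM per kb), the lymphoid and myeloid subunit c-Rel, and Nfkb2 (4.35 ± 0.911), the precursor of the alternative pathway, came next, and their ranges over the 3 clones overlapped. Nfkbie stood at 1.57 ± 0.172 CPM per kb. Nfkbiz, which encodes a nuclear IkB that can also activate genes, Tnfaip3 and Relb, the activating subunit of the alternative pathway, were lowest at 0.727 ± 0.0776, 0.508 ± 0.196 and 0.329 ± 0.0269 CPM per kb. The ranges of Nfkbiz and Tnfaip3 overlapped, and those of the other neighbours in this order did not, in Rela and Nfkbia by a narrow margin (lowest 15.79 against highest 15.77 CPM per kb). The lowest count of any of the 10 genes in a library was 46, for Relb.

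**Figure D1:**
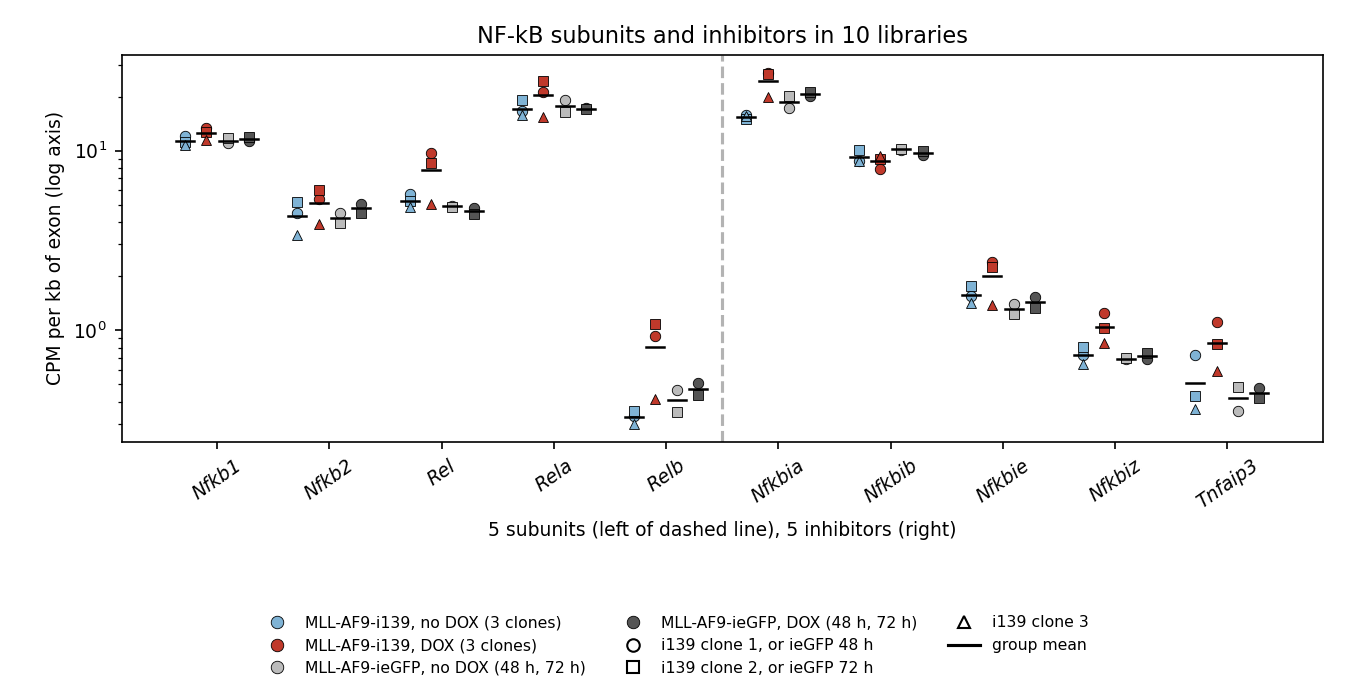
Level of each of the 10 genes in each library, as CPM per kb of exon on a log axis, with subunits left and inhibitors right of the dashed line. Points are libraries (circle, square and triangle for MLL-AF9-i139 clones 1, 2 and 3; circle and square for MLL-AF9-ieGFP at 48 h and 72 h) and bars are group means; the red points of Relb, Nfkbia and Nfkbiz all lie above the blue ones, and the red triangle, clone 3, is lowest of the red points in 9 genes.

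With DOX, 9 of the 10 genes were higher on average in MLL-AF9-i139, all 5 subunits and 4 of 5 inhibitors, and the sole exception was Nfkbib. Without the clone in the model, as the study states no such term, 0 of the 10 passed an adjusted p under 0.05 (edgeR's quasi-likelihood test, Benjamini-Hochberg over 19223 genes), where 0.0572% of all genes were called higher. Unadjusted p-values were under 0.05 for Rel, Relb, Nfkbia and Nfkbiz, as they were for 20.6% of all genes. Since libraries with and without DOX come from the same clone, the fit was repeated with the clone as a block: Relb, Nfkbia and Tnfaip3 then passed, all 3 higher, where 7.05% of all genes were called higher. DESeq2 without the block called Relb and Nfkbia, where it called 5.03% of all genes higher. The levels with and without DOX did not overlap for 3 of the 10 genes, Relb, Nfkbia and Nfkbiz, all higher with DOX, against 11.8% of all genes tested. The median log2 fold change was 0.27 over the subunits and 0.54 over the inhibitors, beside 0.01 over all genes.

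Among the subunits, Relb on chromosome 7 (19606217 to 19629438, GRCm38) had the largest fold. It had 1.29, 1.37 and 1.17 CPM in clones 1, 2 and 3 without DOX, and 3.61, 4.22 and 1.599 CPM with DOX. All 3 clones were higher with DOX, clones 1 and 2 by far more than clone 3, and the groups did not overlap. The log2 fold change was 1.32 ± 0.36 (SE), with an adjusted p of 0.124 without and 0.0329 with the clone block in edgeR. In MLL-AF9-ieGFP Relb had 1.80 and 1.36 CPM when untreated for 48 h and 72 h and 1.96 and 1.69 CPM when treated, so that the treated clone 3 stood inside the MLL-AF9-ieGFP range.

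Rel had 42.9, 39.0 and 36.04 CPM without DOX and 72.5, 63.7 and 37.4 CPM with DOX in clones 1, 2 and 3. Clones 1 and 2 were well above every untreated library, and clone 3 lay among the untreated ones, so the groups overlapped. The log2 fold change was 0.58 ± 0.23 (SE), with an adjusted p of 0.206 and, with the block, 0.061 (edgeR). Rela showed the same split at a smaller size: 51.0, 58.5 and 48.5 CPM without DOX became 65.6, 75.4 and 47.2 CPM, a log2 fold change of 0.27 ± 0.17 (SE) with an adjusted p of 0.416, or 0.175 with the block. Both genes carry a site shown above, and whether miR-139 acts on them was not tested.

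The precursor genes differed little. Nfkb1 had 145, 134 and 130 CPM without DOX and 161, 153 and 138 CPM with DOX, a log2 fold change of 0.16 ± 0.10 (SE, edgeR, adjusted p = 0.388, and 0.204 with the block). Nfkb2 had 20.6, 23.7 and 15.5 CPM without DOX and 24.6, 27.6 and 18.0 CPM with DOX, a log2 fold change of 0.25 ± 0.21 (SE, adjusted p = 0.531, and 0.119 with the block). Clone 3 was lowest in both groups for both genes, and every clone was higher with DOX than without. On the log2 CPM scale Nfkb2 was higher by 0.26, 0.22 and 0.22 in clones 1, 2 and 3. In MLL-AF9-ieGFP it was higher by 0.17 at 48 h and 0.19 at 72 h, close to these. For Nfkb1 the differences were 0.16, 0.19 and 0.09, against 0.04 and 0.02 in MLL-AF9-ieGFP. Of Nfkb2, 18.1% of the exon bases are shared with genes on the opposite strand (Psd and AC114539.1), whose reads cannot be told from its own where counting ignores strand.

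Among the inhibitors, Nfkbia on chromosome 12 (55489410 to 55492647) had 25.4, 24.1 and 25.2 CPM in clones 1, 2 and 3 without DOX and 43.7, 43.0 and 31.9 CPM with DOX. The untreated clones lay close together, every treated clone was higher, and the groups did not overlap. The log2 fold change was 0.68 ± 0.14 (SE), with an adjusted p of 0.0962 without and 0.0271 with the clone block (edgeR). The MLL-AF9-ieGFP libraries held 27.8 and 32.5 CPM when untreated and 32.4 and 34.1 CPM when treated, at the earlier and the later time. All 4 were above the untreated MLL-AF9-i139 clones, a difference between constructs that was not tested, and the treated clone 3 lay within their range.

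Tnfaip3, the A20 gene, varied most between untreated clones. It had 5.28, 3.09 and 2.63 CPM without DOX and 8.00, 6.05 and 4.26 CPM with DOX in clones 1, 2 and 3. Each clone was higher with DOX than without, by 0.59, 0.96 and 0.69 on the log2 CPM scale, but the untreated clone 1 lay above the treated clone 3, so the groups overlapped. The log2 fold change was 0.75 ± 0.33 (SE), with an adjusted p of 0.247 without and 0.0297 with the block (edgeR). In MLL-AF9-ieGFP the log2 CPM of Tnfaip3 differed with DOX by 0.42 at 48 h and by -0.20 at 72 h. Without DOX it was higher by 0.43 at 72 h than at 48 h there.

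Nfkbiz had 3.64, 4.05 and 3.27 CPM without DOX and 6.29, 5.16 and 4.24 CPM with DOX. The groups did not overlap. The 3 treated clones lay above all 4 MLL-AF9-ieGFP libraries, which ranged from 3.47 to 3.75 CPM, and so did the untreated clone 2 (4.05 CPM). The log2 fold change was 0.53 ± 0.22 (SE, edgeR, adjusted p = 0.214, and 0.0756 with the block). Nfkbie had 4.73, 5.35 and 4.31 CPM without DOX and 7.27, 6.81 and 4.21 CPM with DOX, so that clones 1 and 2 were higher and clone 3 was not (log2 fold change 0.36 ± 0.24, SE, adjusted p = 0.43, and 0.229 with the block).

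Nfkbib was the inhibitor with no common direction. It had 19.03, 21.9 and 19.1 CPM without DOX and 17.1, 19.5 and 20.3 CPM with DOX in clones 1, 2 and 3, slightly lower in clones 1 and 2 and slightly higher in clone 3. The log2 fold change was -0.06 ± 0.13 (SE, edgeR, adjusted p = 0.819, and 0.712 with the block). Of its exon bases 16.4% are shared with opposite-strand genes, Ccer2 and Sirt2.

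**Figure D2:**
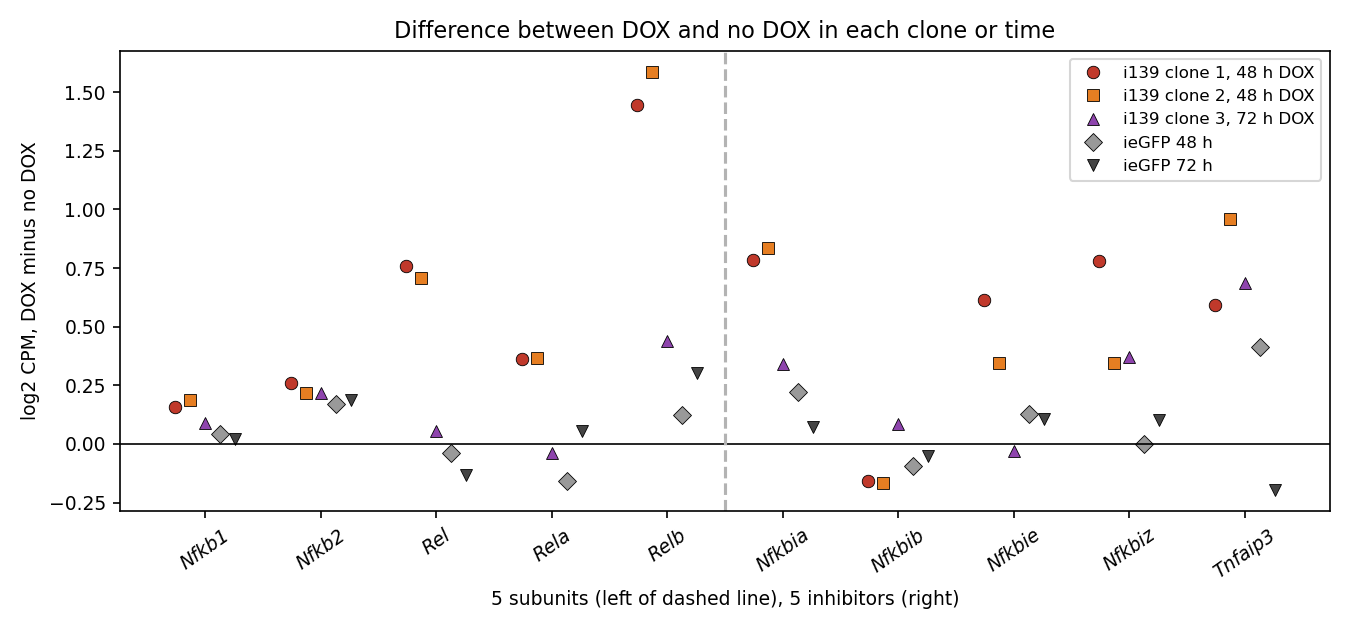
Difference in log2 CPM between DOX and no DOX for each gene, in each MLL-AF9-i139 clone and in MLL-AF9-ieGFP at 48 h and 72 h; subunits are left and inhibitors right of the dashed line. Clones 1 and 2 lie close together and above clone 3 in Rel, Rela, Relb and Nfkbia, while all 5 points of Nfkbib lie between -0.17 and 0.08.

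How many genes passed depended on clone 3. Without it and without the block, Rel, Rela, Relb and Nfkbia were called higher, where 11.6% of all genes were. With the block and without clone 3, 9 of the 10 were called higher, all but Nfkbib, where 22.5% of all genes were. Without clone 1 or without clone 2 the count was 0 with and without the block. Levels of marker genes differed too, in patterns of their own. The 4 macrophage markers, 3 of them at 10 counts or more and C1qa at 0, summed to 3.54, 2.77 and 1.67 CPM in the untreated and 14.4, 6.28 and 2.31 CPM in the treated clones 1, 2 and 3, with the smallest difference in clone 3. The other lists differed in clone 3 as well. The 6 mature neutrophil markers summed to 221, 162 and 128 CPM untreated and 318, 313 and 188.5 CPM treated. Ngp led this rise, from 79.28, 56.33 and 42.38 CPM to 158.5, 185.5 and 102.4 CPM. S100a9 went from 66.78, 48.23 and 38.93 CPM to 67.06, 53.78 and 32.77 CPM. The 3 mast cell and basophil markers summed to 9.97 to 12.1 CPM untreated and 14.9 to 16.6 CPM treated. Mcpt8 was higher with DOX in each clone. Ms4a2 was lower in each, from 2.035, 1.303 and 1.672 CPM to 1.232, 0.8638 and 0.8123 CPM. The 3 T cell markers summed to 0.308, 0.252 and 0.253 CPM untreated and 0.627, 0.508 and 0.381 CPM treated. Most of this was Cd3d, with 124 counts over the 10 libraries. The 10 progenitor markers summed to 2388, 2908 and 3539 CPM untreated and 3245, 3328 and 5333 CPM treated. Within this last list the log2 CPM of Mpo was higher with DOX by 1.65, 1.01 and 1.53 in clones 1, 2 and 3 and that of Fcgr3 by 1.80, 1.47 and 0.33, while Hoxa9 differed by -0.49, -0.25 and -0.36, Ly6c2 by -0.44, -0.59 and 0.03 and Elane by -0.26, -0.38 and 0.41. The part of these shifts in the levels of the 10 genes was not tested.

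In MLL-AF9-ieGFP none of the 10 genes was called with DOX by edgeR with or without the replicate block or by DESeq2, and none had an unadjusted p under 0.05 in these fits, where edgeR called 0% of 20269 genes. The log2 fold changes lay between -0.09 (Rel, SE 0.24) and 0.20 (Relb, SE 0.40). In the fit without the block Nfkbia had the smallest unadjusted p, 0.391, with a log2 fold change of 0.14 ± 0.16 (SE). The difference between the constructs was then tested as the interaction of DOX with construct. Again 0 of the 10 genes passed, where 0.00493% of all genes did. With the block 0 passed as well, where 0.187% of all genes did, and DESeq2 called 0, where it called 0.405% of all genes. Unadjusted p-values were under 0.05 for 4 of the 10 genes with the block and for 3 by DESeq2. The shares of all genes were 18.9% and 8.09%. Nfkbia had an interaction of 0.53 ± 0.20 on the log2 scale (SE, edgeR, unadjusted p = 0.0251, adjusted p = 0.527), Relb of 1.10 ± 0.51 (adjusted p = 0.559) and Rel of 0.65 ± 0.31 (adjusted p = 0.565). Without clone 3, Rel, Relb and Nfkbia passed, with adjusted p-values of 0.00393, 0.0314 and 0.0149, where 5.74% of all genes were higher by this test.

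Subunits were next set against inhibitors within each library. With each gene weighted alike, the mean log2 CPM of the inhibitors minus that of the subunits was -1.52, -1.63 and -1.57 in the untreated clones 1, 2 and 3 and -1.59, -1.78 and -1.43 with DOX. The difference widened in clones 1 and 2 and narrowed in clone 3, and its mean change was -0.03 ± 0.15 (SD, n = 3). The mean log2 CPM of the subunits was higher with DOX by 0.60, 0.61 and 0.15 in clones 1, 2 and 3, and that of the inhibitors by 0.52, 0.46 and 0.29. In MLL-AF9-ieGFP the difference changed by 0.11 at 48 h and by -0.08 at 72 h. With all 10 genes counted, the mean change of the difference was smaller than its spread between clones. Without Nfkbiz and Tnfaip3 among the inhibitors it was -0.16 ± 0.13 (SD, n = 3), with -0.18, -0.28 and -0.02 in clones 1, 2 and 3, against 0.06 and -0.04 in MLL-AF9-ieGFP at 48 h and 72 h.

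Sums, in which abundant genes such as Nfkbia count for more, differed from this. The ratio of summed CPM per kb, inhibitors to subunits, was 0.703, 0.686 and 0.767 in the untreated clones 1, 2 and 3 and 0.784, 0.753 and 0.885 in the treated ones, higher in each clone although the groups overlapped. In MLL-AF9-ieGFP it was 0.743 (48 h) and 0.881 (72 h) in untreated and 0.830 and 0.8775 in treated cultures. That range overlaps the treated MLL-AF9-i139 clones too. The log2 ratio of summed CPM was higher with DOX in every clone, by 0.17, 0.13 and 0.18, against 0.11 and 0.0003 in MLL-AF9-ieGFP at 48 h and 72 h. The ratio of Nfkbia to Rela, each in CPM per kb, was 0.949, 0.786 and 0.990 in the untreated clones and 1.27, 1.09 and 1.29 in the treated ones, with no overlap. In MLL-AF9-ieGFP this ratio was 0.897 (48 h) and 1.23 (72 h) in untreated and 1.17 and 1.24 in treated cultures, a range that overlaps that of the treated MLL-AF9-i139 clones.

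**Figure D3:**
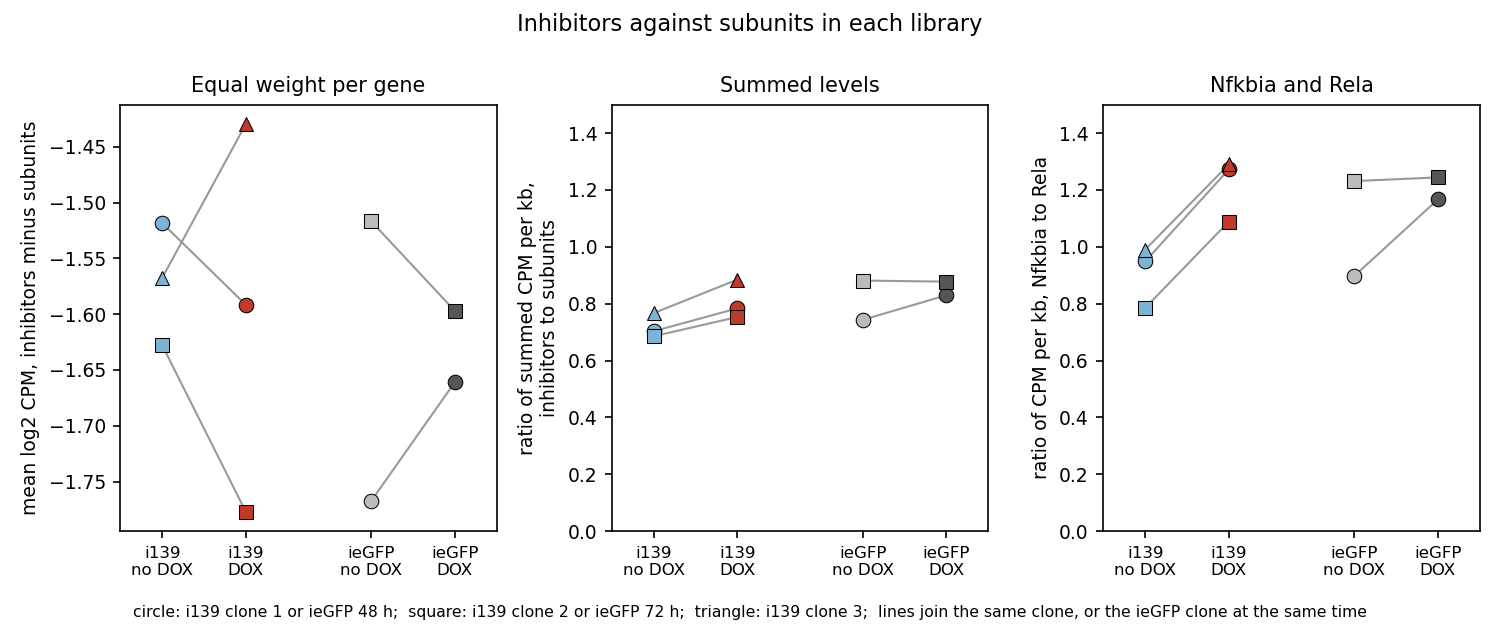
Inhibitors against subunits in each library, with lines joining the same clone or, in MLL-AF9-ieGFP, the same time: the difference of mean log2 CPM (left), the ratio of summed CPM per kb (middle) and the ratio of Nfkbia to Rela per kb (right). The lines of the 3 MLL-AF9-i139 clones run in different directions on the left and all upward in the middle and on the right.

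The rest of the pathway was described from 6 lists of 91 genes, of which 80 could be tested. Without the block 0 of the 80 were called in MLL-AF9-i139 (edgeR), 28 had an unadjusted p under 0.05, as did 20.6% of all genes, and DESeq2 called 14, all higher, beside 5.03% of all genes called higher. With the block 20 were called, 19 higher and 1 lower, which is 25.0% beside 12.4% of all genes called in either direction. The list medians of the log2 fold change ran from 0.13 for the other IkB family genes to 0.57 for the target genes. In MLL-AF9-ieGFP 0 of the 80 were called by edgeR or DESeq2, and 0 had an unadjusted p under 0.05. In the interaction edgeR called 0 of the 80, with 19 at an unadjusted p under 0.05, as were 9.17% of all genes, and DESeq2 called 2, beside 0.405% of all genes.

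Of 11 IkB and upstream kinases, 3 rose with the block; in this and the following lists the share of all genes called higher with the block, 7.05%, is the background. Map3k8, the kinase bound by the Nfkb1 precursor, had 1.15, 0.983 and 0.912 CPM without and 8.42, 6.58 and 1.17 CPM with DOX (log2 fold change 2.42 ± 0.62, SE, edgeR, adjusted p with the block 0.0336). Map3k14, the NIK kinase of the alternative pathway, had 4.30, 6.08 and 7.70 CPM without and 16.7, 18.9 and 10.7 CPM with DOX (1.37 ± 0.28, adjusted p with the block 0.0297). Ikbke had 32.1, 27.0 and 25.8 CPM without and 49.04, 50.02 and 38.02 CPM with DOX (0.71 ± 0.15, adjusted p with the block 0.0205). The levels of the 3 kinases, named for their calls in these same libraries, did not overlap between the groups. Of all genes tested 11.8% were higher without overlap. Map3k8 in the treated clone 3 (1.17 CPM) was barely above the untreated clone 1 (1.15 CPM). It was below the untreated MLL-AF9-ieGFP cultures (1.383 and 1.415 CPM at 48 h and 72 h), which had 0.892 and 0.897 CPM when treated.

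Of the adaptors and ubiquitin ligases, 19 of 20 were tested and 6 rose with the block. The leading genes by fold were Irak2, an IL-1 and Toll-like receptor kinase (log2 fold change 0.86), Birc3, a ubiquitin ligase of the TNF receptor complex (0.69), Card9, an adaptor of C-type lectin receptors (0.64), and Ticam1, an adaptor of Toll-like receptors (0.60), with block-adjusted p-values of 0.0264, 0.0363, 0.036 and 0.036. Myd88, the shared adaptor of Toll-like receptors, was listed at 0 counts in all libraries. Its whole body overlaps other annotation, but of its exon bases 11.3% are shared, and why it had 0 counts was not tested. Of 13 other negative regulators tested 1 rose, a share near that background: Cyld, a deubiquitinase, went from 67.2, 59.5 and 54.6 CPM to 106, 102 and 69.0 CPM (0.63 ± 0.17, block-adjusted p = 0.0264). None of the 3 other IkB family genes was called by edgeR with or without the block or by DESeq2. Nfkbid, named after its values were seen, had an unadjusted p under 0.05 with the block (edgeR), as did 31.2% of all genes. Its log2 CPM was lower with DOX, by -0.23, -0.44 and -0.36 in clones 1, 2 and 3. In MLL-AF9-ieGFP the differences were -0.30 at 48 h and -0.07 at 72 h.

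Of 14 receptors tested 4 rose with the block. Tlr6 had 2.49, 2.01 and 1.65 CPM without and 9.04, 6.86 and 2.72 CPM with DOX (log2 fold change 1.62 ± 0.42, block-adjusted p = 0.0246), and its partner Tlr2 had 4.83, 3.54 and 1.93 CPM and 8.90, 9.55 and 2.26 CPM (1.02 ± 0.53, block-adjusted p = 0.0484). The TNF receptor genes Tnfrsf1a and Tnfrsf1b had log2 fold changes of 0.65 and 0.44, with block-adjusted p-values of 0.0359 and 0.0282. Tnfrsf1a in the treated clone 3 (85.5 CPM) lay below the untreated clones 1 and 2 (91.9 and 98.7 CPM).

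Of 28 genes known as NF-kB targets, 20 were tested, 5 rose and 1 fell with the block. Bcl2a1a, a survival gene of the BCL2 family, had 7.11, 8.32 and 10.1 CPM without DOX and 22.4, 21.9 and 18.4 CPM with DOX (log2 fold change 1.31 ± 0.17, SE, adjusted p = 0.0596, and 0.0173 with the block, edgeR). Clone 3 was close to the others here, and all 4 MLL-AF9-ieGFP libraries lay between 7.08 and 7.64 CPM. It has near-identical copies, so its reads may be split among them. Ccrl2, a chemokine receptor-like gene (1.16), Bcl2l1, the survival gene BCL-XL (0.90), and Irf1, an interferon regulatory factor (0.78), rose too, with block-adjusted p-values of 0.0285, 0.025 and 0.0335. Irf1 in the treated clone 3 (10.2 CPM) lay below the untreated clone 2 (10.9 CPM). The log2 CPM of Ccrl2 was higher with DOX by 1.06, 1.52 and 0.59 in clones 1, 2 and 3. In MLL-AF9-ieGFP it was higher by 0.35 at 48 h and 0.29 at 72 h. The remaining rise, in Ccl4, lay below the expression limit for named genes, and the fall was in Sod2, a mitochondrial superoxide dismutase, from 95.4, 108 and 106 CPM to 56.0, 55.7 and 94.3 CPM (log2 fold change -0.58, block-adjusted p = 0.0404). Of the inflammatory members, Ccl3 had 0.308, 0.320 and 1.47 CPM in the untreated and 6.45, 5.18 and 0.711 CPM in the treated clones, and Tnf 6.06, 7.84 and 7.65 CPM and 10.3, 11.4 and 8.05 CPM, neither called (edgeR, block-adjusted p = 0.139 and 0.0999). Ccl2, Cxcl1 and Cxcl10 were listed at 0 in every library, and why was not tested. The bodies of Ccl2 and Cxcl10 overlap other annotation along their whole length, but of their exon bases 0% and 5.9% are shared. Cxcl1 has no such overlap. These genes, Ccl4 and Sod2 are named after their values were seen.

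**Figure D4:**
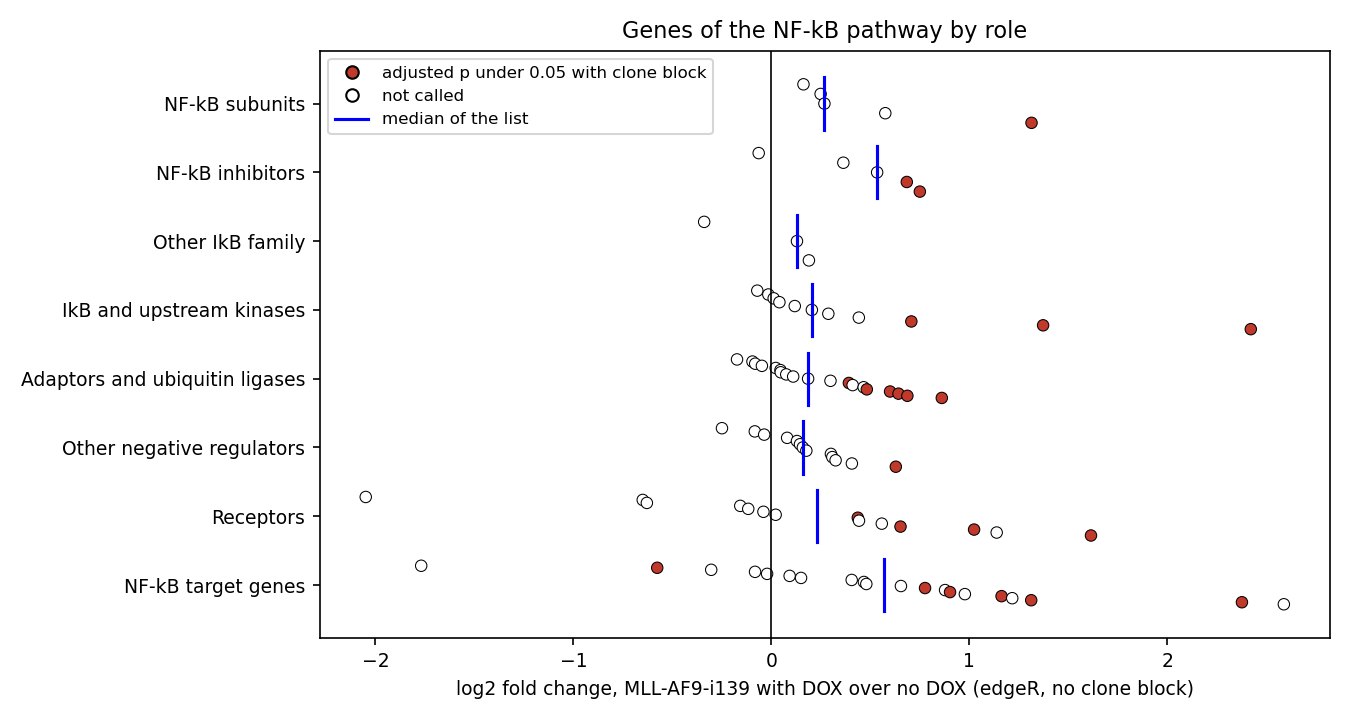
Log2 fold change with DOX in MLL-AF9-i139 (edgeR, no clone block) for the 10 genes and the 6 other lists of the pathway, 1 point per gene tested; red points passed an adjusted p under 0.05 with the clone block and blue bars are list medians. All list medians lie above 0, between 0.13 and 0.57, and 1 red point, Sod2, lies below 0.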

How the data were processed

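Ribosome-depleted RNA libraries were sequenced on a NovaSeq. The authors aligned reads with STAR 2.5.3e to GRCm38 and counted them per gene with featureCounts 1.6.0 on GENCODE M15, and deposited raw counts; the strand setting is not given in the sources used here. Both deposited tables hold the same counts (0 differing values), and 14 columns of other samples were not used. Samples were grouped by their labels, which also tie each column name to a library.

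Counts of genes with at least 10 in total were tested with edgeR 4.0.16 (R 4.3.3; quasi-likelihood, TMM, Benjamini-Hochberg, adjusted p under 0.05): the 6 MLL-AF9-i139 libraries alone, and 4 groups in 1 fit of 10 libraries for MLL-AF9-ieGFP and the interaction. SE is the log2 fold change divided by the root of F. Clone and library differences use log2 CPM with a prior count of 2. The clone numbers pair libraries with and without DOX of the same clone: deviations from group means correlated at r = 0.381, 0.288 and 0.414 for clones 1, 2 and 3 across genes, which are not independent replicates. In the 4-group fit the block is the clone, or the time in MLL-AF9-ieGFP. Alternatives were the block, DESeq2 1.42.0, RLE factors, 3 filters, all libraries, and each clone left out; scripts were tested on simulated data. Exon lengths, positions and overlaps are from GENCODE M21, a later release on the same build. Of the other lists, genes called with or without the block with an average log2 CPM of at least 0 were named, at most 4 per list by fold. The members and lists were chosen with earlier results of these data known. The total count per library limits the precision of low genes, and tests across genes cover the spread between these libraries only.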

Additional observations from a re-analysis of the deposited data

Results flagged for a closer look

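Rel was listed because its differences with DOX had opposite signs in the constructs. By edgeR with all clones it passed in neither construct, with or without the block. In MLL-AF9-i139 it was called by edgeR without clone 3, and by DESeq2 with the block. Its level was higher in all 3 MLL-AF9-i139 clones, by 0.76, 0.71 and 0.05 on the log2 CPM scale, and lower in MLL-AF9-ieGFP at both times, with differences of -0.04 at 48 h and -0.13 at 72 h, so that clone 3 and the 48 h cultures were near 0. The interaction of DOX with construct was 0.65 ± 0.31 on the log2 scale (SE) and did not pass the test (edgeR, unadjusted p = 0.0598, adjusted p = 0.565). Groups of 2 or 3 libraries are too small for a check of single outlying libraries.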

How the results depend on the processing

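The clone term, the test and clone 3 decided how much was called. In MLL-AF9-i139, 12 genes were called, against 2381 with the replicate block, 1556 by DESeq2, 562 with no filter, 6 and 2 with at least 10 counts in 3 or in every library, 1234 with all 10 libraries, and 0 to 3981 without 1 clone. Settings chosen after seeing the data gave 3037 with the block and DESeq2, and with the block 324, 580 and 7974 with clone 1, 2 or 3 left out. Of the 10 genes described, 3 were called with the replicate block, 2 by DESeq2, 1 with no filter, 2 with all 10 libraries, 0 to 4 without 1 clone, 4 with the block and DESeq2, and 9 with the block and clone 3 left out. Of the other pathway genes, 20 were called with the block, 14 by DESeq2, 8 with no filter, 13 with all libraries, 0 to 32 without 1 clone, 25 with the block and DESeq2, and 2, 7 and 49 with the block and clone 1, 2 or 3 left out. In MLL-AF9-ieGFP the count of 0 became 1 by DESeq2 and 1 with no filter. For the interaction, 1 gene became 38 with the block, 82 by DESeq2, 71 with no filter, 0 with either stricter filter, and 0 to 2011 without 1 library pair, the highest without clone 3. The cause of these shifts was not tested, beyond that fewer genes or libraries enter some fits.

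Directions held for all 10 genes in MLL-AF9-i139 under every alternative run. Values near 0 turned elsewhere: without the 48 h or the 72 h libraries, Rela in MLL-AF9-ieGFP was 0.0364 and -0.150 and Tnfaip3 -0.22 and 0.429, and the interaction of Nfkbib, -0.0021 on the log2 scale, was 0.0110 by DESeq2, 0.0119 with RLE factors, 0.0103 and 0.0166 with at least 10 counts in 3 or in every library, and -0.0545 to 0.0461 without 1 library pair. The change of inhibitors minus subunits was -0.03 and became 0.16 with summed CPM and -0.16 without Nfkbiz and Tnfaip3, and it was within 0.01 of -0.03 with RLE factors or a prior count of 0.5. In MLL-AF9-i139 edgeR with the block called Relb, Nfkbia and Tnfaip3, and DESeq2 with the block called these and Rel. Without clone 3, edgeR with the block called all but Nfkbib. In MLL-AF9-ieGFP and for the interaction the block changed no call for the 10 genes. The lowest counts, 46 to 173 per library for Relb, limit its precision.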
